A study of Mus musculus with 18 samples.

Results

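Lipid droplet coat and lipolysis proteins were followed in mouse liver through the mRNA of 10 genes, chosen by name from the 54532 genes of the deposited table. They were the perilipins Plin2, Plin4 and Plin5, the CIDE genes Cidea, Cideb and Cidec, the patatin-like phospholipases Pnpla2 and Pnpla3, the lipase inhibitor G0s2 and the droplet enzyme Hsd17b13. All 10 were in the table, and 9 had a mean of at least 1 FPKM over the mice and were tested among 10216 genes. Pnpla3 was below that level and was not tested. FPKM is the number of fragments on a gene relative to its length and to a library size set for each mouse, so levels of different genes can be compared per length.

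Hepatocytes store triglyceride in lipid droplets, a core of neutral lipid within a phospholipid monolayer that carries its own set of proteins. Perilipins coat the monolayer and control the access of lipases to the core, and CIDE proteins move lipid between droplets so that large droplets grow from small ones. Adipose triglyceride lipase, the product of Pnpla2, starts the breakdown of stored triglyceride together with its coactivator Abhd5 and is blocked by G0s2, and these proteins set how much fat a fasted or overfed liver keeps.

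The livers came from 18 male C57BL/6J mice, which were 6 weeks old on arrival and were acclimatized for 1 week. The 6 NC mice ate a standard diet, the 6 HFD control mice ate a high-fat diet for 14 weeks and then received saline on the same diet, and the 6 SZ-A mice received SZ-A, the alkaloids of Ramulus Mori (mulberry twig), in place of saline. The treatment period is 8 weeks in the deposited description and 6 weeks in the methods of the study, and the dose given to the sequenced mice was not stated in the sources used here. All mice were fasted overnight before the liver was taken. The mouse NC6 is titled as a chow mouse but carries a high-fat diet label, and it was kept in NC.

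Fragments on genes ranged from 17163191 to 20493907 per mouse. NC5 lay farthest from its group, with a root mean square difference of 0.589 on the log2 scale from the NC mean, against 0.322 to 0.383 for the other NC mice, and SZ-A5 (0.504) and HFD5 (0.435) lay farthest in theirs. The expression of NC6 correlated more closely with the mean of NC mice (r = 0.983) than with that of HFD mice (r = 0.969), over the genes tested. All 8 hepatocyte markers were above 0 in each group, and their sum had a median of 46205 FPKM in NC mice, 34605 in HFD mice and 38690.4 in SZ-A mice. Alb made up most of it, with means of 29448, 21469 and 24029.6 FPKM. The markers did not all fall. In HFD against NC mice 2 of the 8, Ttr and Cyp2e1, had a fold change above 0, and the others were below 0. The sum of 8 macrophage markers was 109.9 to 225 FPKM in NC mice, 227 to 363 in HFD mice and 188 to 280.0 in SZ-A mice, and that of 5 skeletal muscle markers reached 32.4 FPKM in HFD3 and 8.39 in NC2 and was at most 1.47 in the other mice. What part these cells had in the results was not tested. In whole liver, fewer cells of a type and less RNA per cell cannot be told apart.

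To see how the high-fat diet changed these genes, HFD mice were compared with NC mice. A gene was called when its adjusted p (limma, Benjamini-Hochberg over all genes tested) was under 0.05 and its fold change over 1.2, which was the case for 20.2% of all genes tested (10.7% higher and 9.49% lower). Of the members, 5 were called, and 8 of the 9 tested had an unadjusted p under 0.05, beside 34.8% of all genes tested. Plin4 and Cidea were higher in HFD mice, and Plin5, Pnpla2 and Hsd17b13 were lower. The median log2 fold change of the 9 members was -0.44, beside -0.03 for all genes tested. The groups did not overlap for Plin4, Plin5 and Pnpla2, as was the case for 10.5% of all genes tested. The members were chosen with earlier results of these data known. Setting their counts beside all genes, here and in the comparisons below, is therefore a description and not a test. Cidea reached the level needed for testing only through the mice with high values.

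To see what SZ-A changed, SZ-A mice were compared with HFD mice. By limma none of the 9 members was called, where 0.147% of all genes tested were (0.0783% higher and 0.0685% lower). At so low a share no call would be looked for among 9 genes, so this count does not show that the members were unchanged. Over other settings of the fit, the number of all genes called ranged from 0 to 233. Unadjusted p-values were under 0.05 for Cidea and Hsd17b13, with lower means in SZ-A mice, and for Cideb, with a higher mean, which is 3 of 9 members beside 14.8% of all genes tested. The voom test on whole fragments called 0 members too. The median log2 fold change of the 9 members was -0.02, beside 0.03 for all genes tested, and no member had groups that did not overlap (1.28% of all genes tested had).

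SZ-A mice were also compared with NC mice, to see which levels remained apart from those on the standard diet. Plin5, Cidec, Pnpla2 and Hsd17b13 were called lower in SZ-A mice and no member was called higher, where 9.6% of all genes tested were called in either direction, 5.31% higher and 4.3% lower. For Pnpla2 and Hsd17b13 the groups did not overlap, as was the case for 5.50% of all genes tested. These 3 comparisons share mice, so their fold changes are given side by side for each gene and were not tested against each other.

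**Figure D1:**
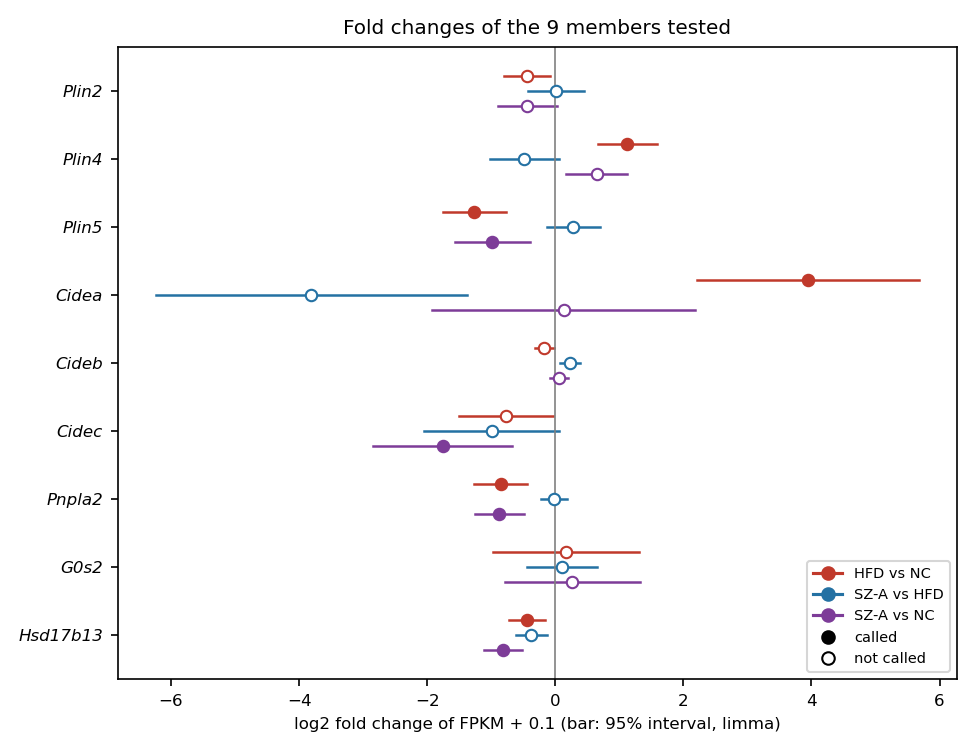
Log2 fold change of FPKM + 0.1 (horizontal axis) of the 9 members tested, with the 95% interval from limma as a bar and filled points for genes called. Only comparisons with NC mice have filled points, and Cidea has the widest intervals, with -3.81 for SZ-A against HFD mice reaching from -6.24 to -1.38.

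Plin2 encodes the perilipin that covers most hepatocyte droplets (ENSMUSG00000028494, chr4:86648386-86670060, GRCm38, minus strand). In NC mice its lowest, median and highest level was 253, 348 and 459 FPKM, in HFD mice 192, 252 and 312, and in SZ-A mice 174, 237 and 372. All 6 HFD mice were below the NC mean, although the ranges overlapped, and SZ-A5 and SZ-A6 (362 and 372 FPKM) stood above the rest of their group. The mean ± SD was 346 ± 81.5, 252 ± 48.1 and 262 ± 86.4 FPKM (n = 6 each). The log2 fold change of HFD against NC mice was -0.45 ± 0.17 (SE) and was not called (adjusted p = 0.0727, limma). Without NC1 it was -0.53 and called (adjusted p = 0.0397, limma). For SZ-A against HFD mice it was 0.01, with a 95% interval of -0.42 to 0.45, so the data allow a difference of either sign.

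Plin4 and Plin5 are neighbours on chromosome 17, 1797 bases apart on the same strand (Plin4 ENSMUSG00000002831, chr17:56100591-56109803; Plin5 ENSMUSG00000011305, chr17:56111601-56117596; GRCm38, minus strand). Plin4 belongs mainly to adipocyte droplets and coats small, newly formed ones, whereas Plin5 is a perilipin of oxidative tissues that holds droplets against mitochondria and binds Pnpla2. The sequences before their starts, from RefSeq's promoter table, are shown because these neighbours were called in opposite directions in HFD mice.
Plin4, chr17:56109804-56110032, GRCm38.p6, minus strand: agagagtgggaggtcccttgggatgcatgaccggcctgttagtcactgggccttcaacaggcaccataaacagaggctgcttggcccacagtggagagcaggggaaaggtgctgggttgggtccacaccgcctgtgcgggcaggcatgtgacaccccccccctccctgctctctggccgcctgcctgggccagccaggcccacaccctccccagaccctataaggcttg
Plin5, chr17:56117597-56117798, GRCm38.p6, minus strand: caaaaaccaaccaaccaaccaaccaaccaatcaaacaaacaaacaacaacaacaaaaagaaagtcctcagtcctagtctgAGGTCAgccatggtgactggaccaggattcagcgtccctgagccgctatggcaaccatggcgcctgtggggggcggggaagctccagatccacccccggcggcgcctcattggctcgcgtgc
Capitals mark AGGTCA, the half-site bound by PPAR and other nuclear receptors, read on either strand (TGACCT on the other). It was present before Plin5 and not in the window before Plin4.

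Plin4 mRNA was low in NC mice, with a lowest, median and highest level of 2.94, 4.80 and 6.14 FPKM (299 to 618 fragments). In HFD mice these were 7.29, 9.45 and 17.6 FPKM, and in SZ-A mice 4.77, 6.80 and 11.4 FPKM. Every HFD mouse was above every NC mouse, and the SZ-A range overlapped both. Plin4 rose from 4.60 ± 1.09 FPKM in NC to 10.4 ± 3.82 in HFD mice (n = 6 each, log2 fold change 1.13 ± 0.21 SE, adjusted p = 0.00283 by limma), and was called under all 25 alternatives. SZ-A mice had 7.43 ± 2.63 FPKM, all above the NC mean and 5 of 6 below the HFD mean. Neither difference was called, with log2 fold changes of -0.48 (95% interval -1.02 to 0.06) against HFD and 0.64 (0.17 to 1.12) against NC mice.

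Plin5 went the other way. Its lowest, median and highest level was 56.8, 86.9 and 184 FPKM in NC mice, 29.0, 37.7 and 44.9 in HFD mice and 26.4, 52.2 and 60.2 in SZ-A mice. All HFD mice lay below all NC mice, and the highest NC value was that of NC5. The mean fell from 98.2 ± 45.5 to 38.3 ± 5.73 FPKM on the high-fat diet (n = 6 each), a log2 fold change of -1.26 ± 0.23 (SE) with an adjusted p of 0.0022 (limma). Without NC5 the log2 fold change was -1.06 (adjusted p = 0.000926, limma). In SZ-A mice the mean was 47.9 ± 13.3 FPKM, and 5 of 6 were above the HFD mean, a log2 difference of 0.28 with a 95% interval of -0.13 to 0.69 that was not called (adjusted p = 0.524, limma). Against NC mice Plin5 was lower in SZ-A mice (log2 fold change -0.98 ± 0.27 SE, adjusted p = 0.0381 by limma). This call was lost without SZ-A1, SZ-A2, SZ-A3, SZ-A6, NC2, NC3 or NC4 (adjusted p of 0.0724, 0.0719, 0.0725, 0.0534, 0.0528, 0.074 and 0.0711 by limma).

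**Figure D2:**
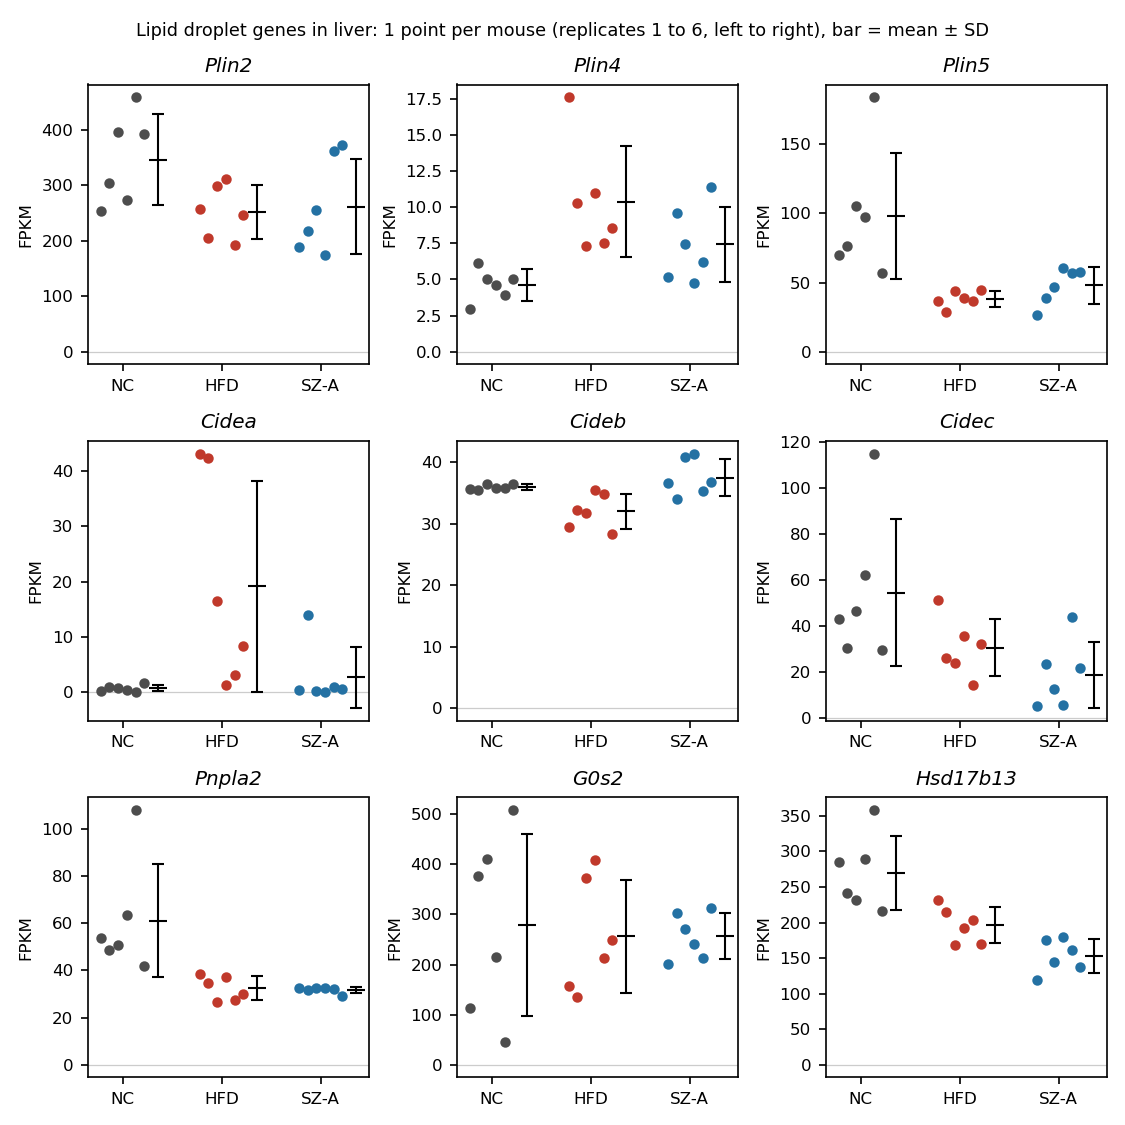
FPKM of the 9 members tested (vertical axes) in each of the 6 NC, 6 HFD and 6 SZ-A mice (points, replicates 1 to 6 from left to right), with the mean ± SD beside each group. Plin4 is higher and Plin5 and Pnpla2 are lower in every HFD mouse than in every NC mouse, and Cidea spans 1.38 to 43.1 FPKM among HFD mice.

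The CIDE genes behaved unlike each other. Cidea (ENSMUSG00000024526), which enlarges droplets in brown fat and is switched on in steatotic liver, had a lowest, median and highest level of 0.106, 0.654 and 1.68 FPKM in NC mice, which is 2 to 37 fragments per mouse. In HFD mice these were 1.38, 12.5 and 43.1 FPKM, and in SZ-A mice 0, 0.501 and 14.0 FPKM. Among HFD mice, HFD1 (43.1) and HFD2 (42.3) were far above HFD4 (1.38) and HFD5 (3.15), and among SZ-A mice only SZ-A2 (14.0) was above 1.03 FPKM. HFD4 fell within the NC range, so the groups overlapped, but all 6 HFD mice were above the NC mean.

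Cidea rose from 0.738 ± 0.565 FPKM in NC to 19.1 ± 19.0 in HFD mice (n = 6 each), 25.9-fold in means and 3.94 ± 0.80 (SE) on the log2(FPKM + 0.1) scale (adjusted p = 0.00426, limma). It reached the level needed for testing through the high mice, since its NC mean was below 1 FPKM. The call held without each mouse in turn and was lost in voom on whole fragments (log2 fold change 4.18, adjusted p = 0.0662). In SZ-A mice the mean was 2.70 ± 5.54 FPKM and all 6 were below the HFD mean, with a log2 fold change of -3.81 ± 1.12 (SE) that was not called (adjusted p = 0.15 by limma, and 0.0532 without SZ-A2).

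Cidea also marks adipocytes, so their other markers are given beside it. The sum of 9 adipocyte markers without Cidea was 5.52 to 12.7 FPKM in NC mice, 28.1 to 142 in HFD mice and 6.25 to 36.9 in SZ-A mice, and Cfd, the secreted protease adipsin, made up most of it in HFD mice. From HFD1 to HFD6 Cfd was at 60.9, 135, 27.8, 19.4, 48.5 and 22.8 FPKM and Cidea at 43.1, 42.3, 16.5, 1.38, 3.15 and 8.44 FPKM. HFD1 and HFD2 were highest in both genes, whereas HFD5 was next after them in Cfd and next to lowest in Cidea, and among SZ-A mice SZ-A2 (30.9 FPKM of Cfd) was highest in both. Of the 10 markers, 4 were tested, namely Cfd, Fabp4, Lipe and Cidea itself. Cfd and Fabp4 were called higher in HFD than in NC mice, as Cidea was, and Lipe was not called. Of all genes tested, 10.7% were called higher. None of the 4 was called in SZ-A against HFD mice, where 0.147% of all genes tested were, and voom called 0. There Cfd, Fabp4 and Cidea had an unadjusted p under 0.05 by limma, with lower means in SZ-A mice, beside 14.8% of all genes tested. Of the 4, 1 was called without SZ-A2. Fabp4, a fatty acid binding protein of adipocytes and macrophages, rose from 1.40 ± 0.246 FPKM in NC mice to 3.08 ± 1.18 in HFD mice (n = 6 each, log2 fold change 1.02, adjusted p = 0.00526 by limma) and was at 1.96 ± 0.637 FPKM in SZ-A mice. Of the 10 markers, Adipoq, Plin1, Lep, Retn and Adig were near 0. Their highest value in any mouse was 0.618 FPKM in NC mice, 0.592 in HFD mice and 0.187 in SZ-A mice. This part of the list leaves out Cfd, Fabp4 and Cidea, which were called higher in HFD mice. It also leaves out Lipe, which was not called, and Adrb3, which was not tested. What part adipocytes had in these values was not tested. Lep was at 0 in all NC and SZ-A mice and Retn in all SZ-A mice. Of 6 brown adipocyte markers without Cidea, Ucp1 was at 0 in all 18 mice. Their sum was 80.4 to 319 FPKM in NC mice, 27.4 to 78.2 in HFD mice and 32.1 to 107 in SZ-A mice. Elovl3 made up most of it, at 169 ± 89.2, 46.2 ± 20.9 and 54.1 ± 27.2 FPKM (n = 6 each). Elovl3 was called lower in HFD than in NC mice (log2 fold change -1.83, adjusted p = 0.00278 by limma), and Cox7a1 was not called.

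Cideb, the CIDE gene of hepatocytes that takes part in the lipidation of very-low-density lipoprotein, differed little between mice (ENSMUSG00000022219, chr14:55754050-55758458, GRCm38, minus strand). Its lowest, median and highest level was 35.5, 35.8 and 36.5 FPKM in NC mice, 28.4, 32.0 and 35.5 in HFD mice and 34.1, 36.7 and 41.4 in SZ-A mice. All 6 HFD mice were below the NC mean and all 6 SZ-A mice above the HFD mean, with ranges that met or overlapped. The log2 fold change was -0.17 ± 0.07 (SE) for HFD against NC mice (adjusted p = 0.0918, limma) and 0.23 ± 0.07 for SZ-A against HFD mice (95% interval 0.07 to 0.39, adjusted p = 0.183, limma). Neither was called. Once FPKM were scaled to the same sum in every mouse, the first was 0.02 and the second 0.05 (adjusted p = 0.871 and 0.667, limma). Cideb shares 1136 exonic bases, 76.3% of its exons, with Nop9 on the other strand (5.63 FPKM in NC mice). Whether strand was used in counting was not given in the sources used here, so fragments of the pair may be mixed.

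Cidec, which fuses droplets and is known from adipocytes and fatty liver, had a wide spread in each group (ENSMUSG00000030278, chr6:113424634-113435760, GRCm38, minus strand). Its lowest, median and highest level was 29.5, 44.8 and 115 FPKM in NC mice, 14.5, 29.2 and 51.1 in HFD mice and 5.29, 17.0 and 43.9 in SZ-A mice. NC5 had the highest value of all, all 6 SZ-A mice were below the NC mean, and the groups overlapped in each comparison. Means were 54.4 ± 31.8, 30.5 ± 12.4 and 18.7 ± 14.5 FPKM (n = 6 each). Cidec was called only in SZ-A against NC mice, where it was lower (log2 fold change -1.76 ± 0.50 SE, adjusted p = 0.0438 by limma). Leaving out SZ-A1, SZ-A3, SZ-A4, SZ-A6, NC1, NC2, NC3, NC4 or NC5 ended that call (adjusted p of 0.0849, 0.0884, 0.0813, 0.0602, 0.0696, 0.0522, 0.0726, 0.0834 and 0.0685 by limma). The log2 fold changes of -0.76 for HFD against NC (adjusted p = 0.128, limma) and -0.99 for SZ-A against HFD mice (95% interval -2.05 to 0.06) did not pass the test.

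Pnpla2 encodes adipose triglyceride lipase, the enzyme that removes the first fatty acid from triglyceride (ENSMUSG00000025509, chr7:141455198-141460743, GRCm38, plus strand). Its upstream sequence is shown with that of Hsd17b13, because these members were lower in both groups on the high-fat diet and apart from NC in SZ-A mice.
Pnpla2, chr7:141454938-141455187, GRCm38.p6, plus strand: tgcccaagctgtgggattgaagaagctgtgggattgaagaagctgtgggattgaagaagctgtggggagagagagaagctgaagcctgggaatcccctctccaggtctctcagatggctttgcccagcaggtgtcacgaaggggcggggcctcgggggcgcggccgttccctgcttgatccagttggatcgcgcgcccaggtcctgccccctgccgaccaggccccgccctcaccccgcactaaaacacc
Hsd17b13, chr5:103977411-103977638, GRCm38.p6, minus strand: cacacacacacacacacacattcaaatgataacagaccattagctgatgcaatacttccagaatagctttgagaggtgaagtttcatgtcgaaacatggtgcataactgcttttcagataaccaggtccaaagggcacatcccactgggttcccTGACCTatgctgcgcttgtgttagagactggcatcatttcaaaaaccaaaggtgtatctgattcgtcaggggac
Capitals again mark AGGTCA or, on the other strand, TGACCT, which was found before Hsd17b13 and not before Pnpla2. In the 250 bases before the start it was present in 14.0% of 32851 RefSeq promoters and in 3 of 11 windows of the 9 members that matched the table, those of Plin2, Plin5 and Hsd17b13. A relaxed direct repeat, AGGNCA (N is any base) on both sides of 1 further base, was in 0.338% of all promoters and in 0 windows of members.

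In NC mice the lowest, median and highest level of Pnpla2 was 41.9, 52.4 and 108 FPKM. It was 26.7, 32.2 and 38.4 FPKM in HFD mice, and 29.0, 32.3 and 32.7 in SZ-A mice. Every mouse on the high-fat diet, with or without SZ-A, was below every NC mouse, and 5 of the 6 SZ-A mice lay between 31.7 and 32.7 FPKM. Pnpla2 fell from 61.2 ± 24.1 to 32.4 ± 5.07 FPKM on the high-fat diet (n = 6 each, log2 fold change -0.85 ± 0.19 SE, adjusted p = 0.00801 by limma). In SZ-A mice the mean was 31.7 ± 1.40 FPKM, lower than in NC mice (log2 fold change -0.87 ± 0.18 SE, adjusted p = 0.00986 by limma). Both calls held under every alternative run, and without NC5 the log2 fold changes were -0.68 and -0.69. SZ-A and HFD mice differed by -0.02 on the log2 scale, with a 95% interval of -0.22 to 0.19.

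Pnpla3, a relative of Pnpla2 whose human form carries a known risk allele for fatty liver, was near 0 (ENSMUSG00000041653, chr15:84167837-84187236, GRCm38, plus strand). Mice had 0 to 7 fragments on it. Mean levels were 0.0556 FPKM in NC mice, 0.0602 in HFD mice and 0.0708 in SZ-A mice, and a difference between groups was not detectable at this depth.

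G0s2 encodes a small protein that binds and inhibits adipose triglyceride lipase (ENSMUSG00000009633, chr1:193272161-193273217, GRCm38, minus strand). Its lowest, median and highest level was 45.1, 295 and 508 FPKM in NC mice, 135, 231 and 408 in HFD mice and 202, 255 and 312 in SZ-A mice. The groups overlapped throughout, and NC mice covered the widest range, with NC5 lowest and NC6 highest. Means were 278 ± 182, 256 ± 112 and 256 ± 45.9 FPKM (n = 6 each). No difference was called, with log2 fold changes of 0.16 for HFD against NC mice (95% interval -0.98 to 1.30), 0.10 for SZ-A against HFD mice (-0.45 to 0.65) and 0.27 for SZ-A against NC mice (-0.79 to 1.32). The sign of the fold change against NC mice turned without NC5 (-0.28 for HFD and -0.18 for SZ-A mice).

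Hsd17b13, a hepatocyte droplet protein that oxidizes retinol and steroids and is named in human genetics of liver disease, was lowest in SZ-A mice (ENSMUSG00000034528, chr5:103955440-103977410, GRCm38, minus strand). In NC mice its lowest, median and highest level was 216, 263 and 358 FPKM, in HFD mice 168, 198 and 232, and in SZ-A mice 119, 153 and 179. HFD1 alone reached into the NC range, every SZ-A mouse was below every NC mouse, and all 6 SZ-A mice were below the HFD mean. Mean levels were 269.9 ± 52.2, 197 ± 25.3 and 153 ± 23.3 FPKM (n = 6 each).

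The log2 fold change of Hsd17b13 was -0.44 ± 0.13 (SE) for HFD against NC mice (adjusted p = 0.0268, limma). Without HFD3, HFD4, HFD6, NC1 or NC4 this call was lost (adjusted p of 0.0583, 0.0502, 0.0562, 0.0503 and 0.0566 by limma), as it was with FPKM scaled to equal sums (-0.25, adjusted p = 0.139, limma) and with no filter on low values (adjusted p = 0.0613, limma). For SZ-A against NC mice it was -0.81 ± 0.14 (SE, adjusted p = 0.00359 by limma) and was called under every alternative run. The step from HFD to SZ-A mice was -0.37 ± 0.12 (SE, 95% interval -0.62 to -0.12) and was not called (adjusted p = 0.165, limma), except with FPKM scaled to equal sums (-0.55, adjusted p = 0.0475, limma). That scaling moved the median log2 fold change of all genes tested from 0.03 to -0.15 for SZ-A against HFD mice and from -0.03 to 0.16 for HFD against NC mice.

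**Figure D3:**
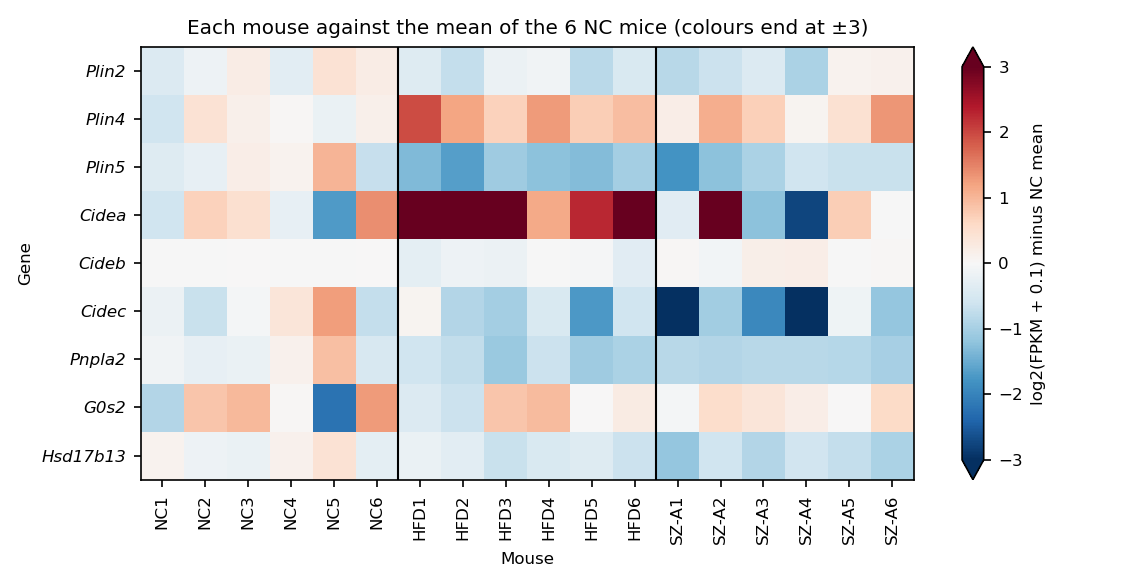
Difference of log2(FPKM + 0.1) of each mouse (columns) from the mean of the 6 NC mice for the 9 members tested (rows), on a colour scale that ends at -3 and 3. Pnpla2, Plin5 and Hsd17b13 are below the NC mean in all 12 mice on the high-fat diet, Plin4 is above it, and NC5 differs from the other NC mice in Plin5, Cidec, Pnpla2 and G0s2.

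Ranked per length within a group, the same 3 genes led in each. In NC mice the order of mean levels was Plin2, G0s2, Hsd17b13, Plin5, Pnpla2, Cidec, Cideb, Plin4, Cidea and Pnpla3, from 346 to 0.0556 FPKM. The ranges of neighbours in that order overlapped, except between Hsd17b13 and Plin5, between Cideb and Plin4 and between Plin4 and Cidea. In HFD mice G0s2 and Plin2 were first with overlapping ranges, and Cidea at 19.1 FPKM stood above Plin4 at 10.4 FPKM, again with overlapping ranges. In SZ-A mice Plin4 at 7.43 FPKM was back above Cidea at 2.70 FPKM, with ranges that overlapped too.

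The other genes of the pathway were read from lists of known function. Beside their counts, 20.2%, 0.147% and 9.6% of all genes tested were called in HFD against NC, SZ-A against HFD and SZ-A against NC mice. Of 14 other genes of the droplet surface and its assembly, 12 were tested, and 3 were called higher and 1 lower in HFD than in NC mice. Fitm1, which partitions triglyceride into droplets, rose from 39.4 ± 14.2 to 65.4 ± 15.7 FPKM, and Mettl7a1, a methyltransferase-like droplet protein, from 74.7 ± 8.97 to 116 ± 13.5 FPKM. Plin3, the exchangeable perilipin, rose from 9.10 ± 1.06 to 13.3 ± 2.83 FPKM, and Aup1, a droplet protein of ubiquitin handling, fell from 33.3 ± 3.47 to 25.4 ± 1.40 FPKM (n = 6 each). The log2 fold changes were 0.78, 0.63, 0.52 and -0.38. None of the 12 was called in SZ-A against HFD mice by limma, and voom called 0. There 1 of the 12 had an unadjusted p under 0.05 by limma, beside 14.8% of all genes tested. Mettl7a1 (0.50) and Plin3 (0.44) were called higher in SZ-A than in NC mice. The median of the 12 was 0.06, -0.03 and 0.08 in the 3 comparisons, in the order HFD against NC, SZ-A against HFD and SZ-A against NC mice.

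All 17 other lipolysis genes were tested, and 1 was called higher and 2 lower in HFD than in NC mice, where 20.2% of all genes tested were called. Ces1g, a carboxylesterase, had a log2 fold change of 1.35, Ces2a of -1.10 and Pnpla7, a lysophospholipase, of -0.95. Abhd5, the coactivator of Pnpla2, was at 3.42 ± 0.297 FPKM in NC mice, 4.39 ± 1.04 in HFD mice and 3.53 ± 0.259 in SZ-A mice and was not called (adjusted p = 0.077 and 0.291 by limma for HFD against NC and SZ-A against HFD mice). Lipe, hormone-sensitive lipase, was at 2.51 ± 0.354, 2.80 ± 0.365 and 2.52 ± 0.303 FPKM and was not called either. In SZ-A against HFD mice only Pnpla7 was called, higher (log2 fold change 0.69, adjusted p = 0.0341 by limma), and the count of the list ranged from 0 to 2 when each mouse was left out. Against NC mice Ces1g, Ces3b and Ces3a were called higher and Ces2a lower in SZ-A mice. Of all genes tested, 0.147% were called in SZ-A against HFD and 9.6% in SZ-A against NC mice. Ces genes form a family of related copies, and how fragments shared by copies were counted was not given in the sources used here, so their values are uncertain.

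Of 8 transcription factors known to act on these genes, 3 were called higher and 1 lower in HFD than in NC mice. Of all genes tested, 20.2% were called there. Srebf1, the SREBP1 gene of fatty acid synthesis, had a log2 fold change of 1.53, Pparg, the adipogenic PPAR that controls Cidea, Cidec and Plin4 in fatty liver, of 0.80, Mlxipl (ChREBP) of 0.59 and Creb3l3, a fasting factor, of -0.29. By limma none of the 8 was called in SZ-A against HFD mice, where 0.147% of all genes tested were, and voom called 0. There 1 of the 8 had an unadjusted p under 0.05 by limma, beside 14.8% of all genes tested. Mlxipl (0.70) was called higher in SZ-A than in NC mice, where 9.6% of all genes tested were called. Ppara, the fasting PPAR that acts on Plin5 and Pnpla2, was not called in a comparison. It was at 48.4 to 63.0 FPKM in 5 NC mice and at 13.1 FPKM in NC5, the NC mouse with most Plin2, Plin5, Cidec, Pnpla2 and Hsd17b13 and least G0s2 and Cidea, and what set NC5 apart was not tested.

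Within groups, members varied together in some pairs. After the group means were subtracted on the log2(FPKM + 0.1) scale, 36 pairs were compared over the 18 mice, with 100000 permutations within groups and Benjamini-Hochberg adjustment over the pairs, and 2 pairs had an adjusted p under 0.05 for Pearson's r. Hsd17b13 and Pnpla2 varied together (r = 0.714, permutation p = 0.00131, adjusted 0.0472, and rho = 0.639, permutation p = 0.00715, adjusted 0.208), and r was 0.724 without the mice farthest from the median of Hsd17b13, SZ-A1 and NC5, and 0.580 without NC5 alone. G0s2 and Hsd17b13 moved in opposite directions (r = -0.699, permutation p = 0.00271, adjusted 0.0488, and rho = -0.614, permutation p = 0.013, adjusted 0.208), with r = -0.482 without NC5 and NC6 and -0.542 without NC5 alone. For G0s2 and its target Pnpla2, r was -0.782 (permutation p = 0.0111, adjusted 0.0803) and rho -0.585 (permutation p = 0.0363, adjusted 0.208), and r was -0.394 without NC5 and NC6 and -0.479 without NC5 alone. No pair passed the adjustment by rank.

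The genes most like each member were read in the same way, as the highest r over all genes tested other than the members, with n = 18 mice that share library and depth. Cidea was nearest to Lpl, lipoprotein lipase (r = 0.82, rho = 0.816), and next to Rgs2 (r = 0.809). Lpl itself was at 1.37 FPKM in NC mice, 3.57 in HFD mice and 1.61 in SZ-A mice. G0s2 was nearest to Inhbe, a hepatocyte-secreted activin subunit (r = 0.93, and 0.847 without NC5), and Pnpla2 to Samm50, a mitochondrial outer membrane protein (r = 0.92, and 0.858 without NC5). For Hsd17b13 the nearest were Idh3a (r = 0.892), Cbr1 (r = 0.874) and Sdhd (r = 0.855), of which Idh3a and Sdhd are subunits of enzymes of the citric acid cycle. The nearest genes of Plin5 (Eif2b4, r = 0.905), Cidec (1700017B05Rik, r = 0.899), Cideb (Rab5c, r = 0.875), Plin4 (Tmcc3, r = 0.855) and Plin2 (Tubb2a, r = 0.818) encode no droplet protein of the lists.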

How the data were processed

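Total RNA of 18 livers was selected for poly-A RNA and made into NEBNext Ultra libraries, which were sequenced as paired-end reads on an Illumina NovaSeq. The submitters' processing notes name HISAT2 2.0.5 and featureCounts 1.5.0-p3, and the build is GRCm38 (mm10). The authors deposited FPKM per gene and mouse without a filter on low values. How these were made from fragment counts, and whether strand was used, was not given in the sources used here.

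FPKM times gene length gave whole fragments for 100% of the values above 0, within 0.05 of a fragment, and depth was read from these. The library size behind the FPKM differed from these fragments by a factor for each mouse. This factor was 0.9325 to 1.025 in NC mice, 0.9983 to 1.141 in HFD mice and 0.9718 to 1.047 in SZ-A mice. The FPKM were therefore not scaled to fragments on genes alone. Median-ratio scaling kept the median log2 fold change of HFD against NC mice at -0.03, so it nearly repeats the main fit. Genes with a mean of at least 1 FPKM were tested in R 4.3.3 with limma 3.58.1 (lmFit, eBayes with trend) on log2(FPKM + 0.1), with each comparison fitted on its own 6 and 6 mice and p-values adjusted by the Benjamini-Hochberg method. Fold changes on this scale understate those of low genes. Values are mean ± SD over 6 mice. The limma p-values weigh the difference of group means against the spread between these mice, moderated over all genes tested. Those of correlations come from permutations within groups. The fit was tested on simulated data. Correlations and figures used Python 3.11.15, scipy 1.17.1 and matplotlib 3.10.9.

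The alternatives were pseudocounts of 1 and 0.01, no filter, a minimum of 5 FPKM, equal FPKM sums, median-ratio scaling, all mice in 1 fit, no trend in eBayes, weighted mice, a block for the replicate number, voom on whole fragments, no fold limit and each mouse left out. Leaving out NC5 with SZ-A5 or with NC6 was chosen after seeing the data. No pair of libraries of a group was a duplicate. Same-numbered mice deviated from their group means with correlations of -0.117 to 0.292 over 18 pairs, so numbers were not taken as pairs. Named genes are the members, up to 4 called genes of each list with the largest change, and the genes nearest to a member. Also named are Abhd5, Lipe and Ppara (chosen after their values were seen), Nop9, which overlaps Cideb, and some cell type markers. The adipocyte markers Adipoq, Plin1, Lep, Retn and Adig, given together, are part of the list of 10. They were not set apart in that list and leave out Cfd, Fabp4, Adrb3, Lipe and Cidea. The members and lists were chosen with earlier results of these data known.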

Additional observations from a re-analysis of the deposited data

Results flagged for a closer look

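Of 30 groups of 6 mice (10 genes in 3 groups), 6 held a mouse flagged by Dixon's test. Its gap to the next mouse exceeded the 95% critical value. Independent, normally distributed values would give about 1 in 20 groups. The test was run on FPKM without a log scale and also on Pnpla3, which was near 0, so the 6 flags cannot show an excess of outliers. For Plin4, HFD1 had 17.6 FPKM, beside 7.29 to 11.0 in the other HFD mice. Cidea was at 14.0 FPKM in SZ-A2 and at most 1.03 in the other SZ-A mice. Pnpla2 was at 108 FPKM in NC5, the library farthest from its group over all genes, and at 63.7 or less in the other NC mice. SZ-A6 had 29.0 FPKM of Pnpla2, under the 31.7 to 32.7 of the other SZ-A mice. Pnpla3 was at 0.207 FPKM in HFD3 (6 fragments) and at 0.249 in SZ-A6 (7 fragments), against at most 2 fragments in the other mice of these groups.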

How the results depend on the processing

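Of the members, 4 to 5 were called in HFD against NC mice over 25 alternatives, with Hsd17b13 lost under equal FPKM sums, with no filter on low values and without HFD3, HFD4, HFD6, NC1 or NC4, and Cidea in voom. In SZ-A against HFD mice the count was 0, and 1 (Hsd17b13) with equal FPKM sums. In SZ-A against NC mice 4 were called, 2 with no filter on low values (more genes tested), and 2 to 4 with each mouse left out, with 2 without SZ-A1, SZ-A3, SZ-A6, NC2, NC3 or NC4. The replicate block gave 5, 0 and 6 members, adding Plin2 and Plin4 in SZ-A against NC mice (adjusted p = 0.0323 and 0.0224, limma), but the numbers did not pair the mice. All genes called numbered 1271 to 2666 (2062 as reported), 0 to 233 (15, and 0 with the replicate block) and 601 to 1682 (981) in HFD against NC, SZ-A against HFD and SZ-A against NC mice. With equal sums 2128 genes were higher and 334 lower in HFD than in NC mice (1092 and 970 as reported), and 10 and 208 in SZ-A against HFD mice (8 and 7).

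Signs turned only for log2 fold changes that were not called, and the cause was not tested. For HFD against NC mice, G0s2 was -0.342 with sample weights, -0.281 to 0.417 with each mouse left out and -0.075 without NC5 and NC6, and Cideb was 0.0209 with equal sums. For SZ-A against HFD mice, Plin2 was -0.0369 with sample weights, -0.165 with equal sums and -0.102 to 0.118 with each mouse left out. There Pnpla2 was -0.0703 to 0.0346 and G0s2 -0.0587 to 0.261 with each mouse left out, and G0s2 was -0.0758 with equal sums. For SZ-A against NC mice, Cidea was -0.319 with a pseudocount of 0.01, -0.605 with sample weights, -0.119 with voom, -0.331 without NC5 and SZ-A5 and -0.717 to 0.711 with each mouse left out. G0s2 there was -0.169 with sample weights, -0.128 without NC5 and SZ-A5 and -0.179 to 0.519 with each mouse left out. Plin4, Plin5 and Pnpla2 in HFD against NC mice, and Pnpla2 and Hsd17b13 in SZ-A against NC mice, were called under every alternative run.

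Called genes of the lists ranged over the alternatives as follows in the same order of comparisons. Droplet surface genes gave 2 to 4, 0 and 0 to 2 calls, lipolysis genes 3 to 7, 0 to 2 and 2 to 7, and transcription factors 2 to 4, 0 and 1 to 2. At this depth the low level of Cidea in NC mice (2 to 37 fragments) and of Pnpla3 limits what can be read from them.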
